A study of Mus musculus with 35 samples.

Results

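Immediate early response genes are transcribed within minutes of a stimulus, without any new protein being needed. Signals that reach MAP kinases, serum response factor or CREB switch on the first transcription factors, such as Fos, Jun and Egr1, whose products in turn act on later genes, while phosphatases, mRNA decay factors and other members of the same wave end the response. In kidney cells these genes respond to injury and to growth factors, and enzymatic digestion and sorting of a tissue are also known to switch them on. The 41 members described here were a list of gene symbols: 7 Fos and Jun family subunits of AP-1, the related factors Atf3 and Maff, the Egr, Klf and Nr4a families, other transcription factors, mRNA decay factors, growth arrest genes, feedback regulators and effectors. All 41 were matched to identifiers among the 33292 genes of the table. The rule that lists them uses no measured value, but the list was chosen with earlier results of these data known.

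The values came from podocytes, the epithelial cells of the glomerular filter, sorted from 35 mice of 6 groups. All mice carried 1 floxed Lmx1b allele (lox), an rtTA transgene active in podocytes, a tetO::Cre transgene and the mT/mG reporter, and received doxycycline at 2 mg/ml in the drinking water, so that Cre removed the floxed allele in podocytes and turned these cells green. Lmx1b+/lox mice, taken to be those with the label WT and called controls below, kept 1 wild-type allele, whereas Lmx1bH77L/lox and Lmx1bC118F/lox mice kept only an allele with a missense mutation in a LIM domain. Mice entered the experiment at 7 to 10 weeks of age. From the start of doxycycline the proteasome inhibitor bortezomib (Btz) at 0.3 µg/g or its solvent DMSO was injected every other day, and podocytes were collected on day 7. There were 6 mice in each group except for Lmx1bC118F/lox mice on bortezomib, of which there were 5. Kidneys of every group were perfused with beads, digested and sorted, and no undigested sample was among those analysed, so the response to isolation and the response to genotype or drug cannot be told apart in the level of a member. Each mouse was 1 library, and values are given in TPM, which is scaled for transcript length and adds up to 1000000 per mouse.

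The recovered reads per mouse lay between 14036032 and 24138527, apart from 5266153 in Lmx1bC118F/lox mouse 2 on bortezomib. The summed TPM of 12 podocyte markers was 23805 to 39166 in DMSO-treated controls, 7268 to 12429 in DMSO-treated Lmx1bH77L/lox and 6798 to 14729 in DMSO-treated Lmx1bC118F/lox mice. In these bulk samples fewer cells of a type and less RNA per cell cannot be told apart. Several mice stood apart from their group. DMSO-treated control mouse 1 had the lowest value of its group for 32 of the 41 members and a summed TPM of 487 for 12 leukocyte markers, against 5.96 to 88.2 in the other controls on DMSO. DMSO-treated Lmx1bC118F/lox mouse 1 had the lowest value of its group for 24 members and a summed TPM of 3245 for 10 mesangial and smooth muscle markers, against 632 to 979 in the others of its group. Most of the 3245 was 1 marker, Ren1, at 2166, against a group median of 2.67. Control mouse 1 on bortezomib was lowest for 30 members and control mouse 6 on bortezomib highest for 26. The part of these marker levels in the members' values was not tested.

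A part of the members was among the most abundant transcripts of the sorted podocytes in every group. Others were not, such as Maff at place 7456 to 10602 and Myc at place 11719 to 24514 of all genes in DMSO-treated controls. Fos, the AP-1 subunit by which the response is usually followed, ranked between place 2 and place 19 of all genes in each of the 35 mice. Together the 41 members made up 1.54 to 6.54% of the TPM of DMSO-treated controls, 4.58 to 6.28% in DMSO-treated Lmx1bH77L/lox and 1.85 to 5.63% in DMSO-treated Lmx1bC118F/lox mice. On bortezomib the shares were 4.42 to 8.12% in controls, 4.46 to 7.02% in Lmx1bH77L/lox and 2.89 to 6.84% in Lmx1bC118F/lox mice. The ranges of all 6 groups overlapped, and the control mice on DMSO included the lowest share of any mouse.

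The promoters of the members were searched for 3 sites known from such genes. The CArG box is the site of serum response factor, CRE (TGACGTCA) the site of CREB, and TGANTCA the site of AP-1 itself. Both strands of the 500 bases before the start of the canonical transcript were searched in 21770 protein-coding genes of GRCm39. A CArG box was found in 2.76% of all promoters and in 6 of the 41 members (Fos, Fosb, Egr2, Egr3, Dusp5 and Gadd45g), a CRE in 1.96% of all and in 6 members (Btg2, Errfi1, Jund, Ier2, Maff and Dusp1), and the AP-1 site in 12.3% of all and in 2 members (Fos and Csrnp1). A match is a stretch of letters and not a measured binding site. Shown are 200 bases, 5′ to 3′ on the strand of the gene, of Fos as the reference gene of the response, of Gadd45g and Maff, which were higher in both mutant lines, and of Dusp1, which was lower. Capitals mark the CArG box in Fos (chr12:85520338-85520537, plus strand, bases 320 to 121 before the start) and in Gadd45g (chr13:52000414-52000613, plus strand, bases 300 to 101 before the start), and the CRE in Maff (chr15:79231520-79231719, plus strand, bases 200 to 1 before the start) and in Dusp1 (chr17:26727494-26727693, minus strand, bases 200 to 1 before the start).
Fos: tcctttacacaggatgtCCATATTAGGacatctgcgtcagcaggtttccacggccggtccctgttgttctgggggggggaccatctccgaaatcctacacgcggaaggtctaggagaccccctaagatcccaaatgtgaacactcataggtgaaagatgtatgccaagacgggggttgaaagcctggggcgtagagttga
Gadd45g: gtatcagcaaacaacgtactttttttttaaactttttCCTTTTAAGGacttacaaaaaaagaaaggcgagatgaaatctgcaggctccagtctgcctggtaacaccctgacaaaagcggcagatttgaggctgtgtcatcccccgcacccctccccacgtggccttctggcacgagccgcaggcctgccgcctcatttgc
Maff: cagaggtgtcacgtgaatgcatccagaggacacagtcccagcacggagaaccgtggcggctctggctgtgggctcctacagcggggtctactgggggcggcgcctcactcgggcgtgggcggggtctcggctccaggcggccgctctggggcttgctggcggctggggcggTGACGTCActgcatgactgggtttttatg
Dusp1: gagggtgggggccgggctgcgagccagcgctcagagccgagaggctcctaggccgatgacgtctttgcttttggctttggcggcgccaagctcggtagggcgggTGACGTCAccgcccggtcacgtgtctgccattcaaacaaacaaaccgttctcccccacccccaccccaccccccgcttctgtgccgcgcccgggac
Of the 24 members that were higher in at least 1 mutant line under DMSO, 3 held a CArG box, 2 a CRE and 1 an AP-1 site, and of the other 17 members 3, 4 and 1 did. Among the 24 were Egr3, which held a CArG box, and Fosl1 and Myc, which held none of these sites. They passed the filter on low values, described below, only through a mutant group, which favoured this direction. The split was not tested.

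Under DMSO, a part of the list was higher in podocytes with a mutant Lmx1b allele, while Fos, Jun and Egr1 were not called. The test was limma's, on the scale of log2(TPM + 1), and a gene was called at an adjusted p under 0.05 over all genes tested. In Lmx1bH77L/lox mice 23 of the 40 members tested were higher and 1, Dusp1, was lower, where 22.4% of all 10964 genes were called higher and 22.4% lower. The same 24 members had an unadjusted p under 0.05, which 52.1% of all genes had. In Lmx1bC118F/lox mice 17 of 40 were higher and again only Dusp1 was lower, where 13.7% of 10899 genes were called higher and 16.6% lower, together 30.4%. A gene was tested where 1 of the 2 groups had no mouse at or below a TPM of 1, and 37 of the 40 members met this in both groups. Egr3, Nr4a3 and Myc in Lmx1bH77L/lox and Fosl1, Egr3 and Myc in Lmx1bC118F/lox mice met it only in the mutant group. The filter itself thus favoured this direction for them. Their calls, within the 23 and 17, are no support for a rise. Without them 21 of 37 members were higher in Lmx1bH77L/lox and 14 of 37 in Lmx1bC118F/lox mice. The median log2 fold change of these 37 was 0.96 against -0.01 over all genes tested in Lmx1bH77L/lox, and 0.67 against -0.06 in Lmx1bC118F/lox mice. Both comparisons used the same 6 control mice. At the stricter cutoffs of the study, an adjusted p under 0.001 and a log2 fold change above 2, 5 members in Lmx1bH77L/lox and 4 in Lmx1bC118F/lox mice passed, where 1.62% and 1.63% of all genes did. The study applied its cutoffs to DESeq2 tests on counts, so these numbers from limma on TPM are not its own calls.

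**Figure D1:**
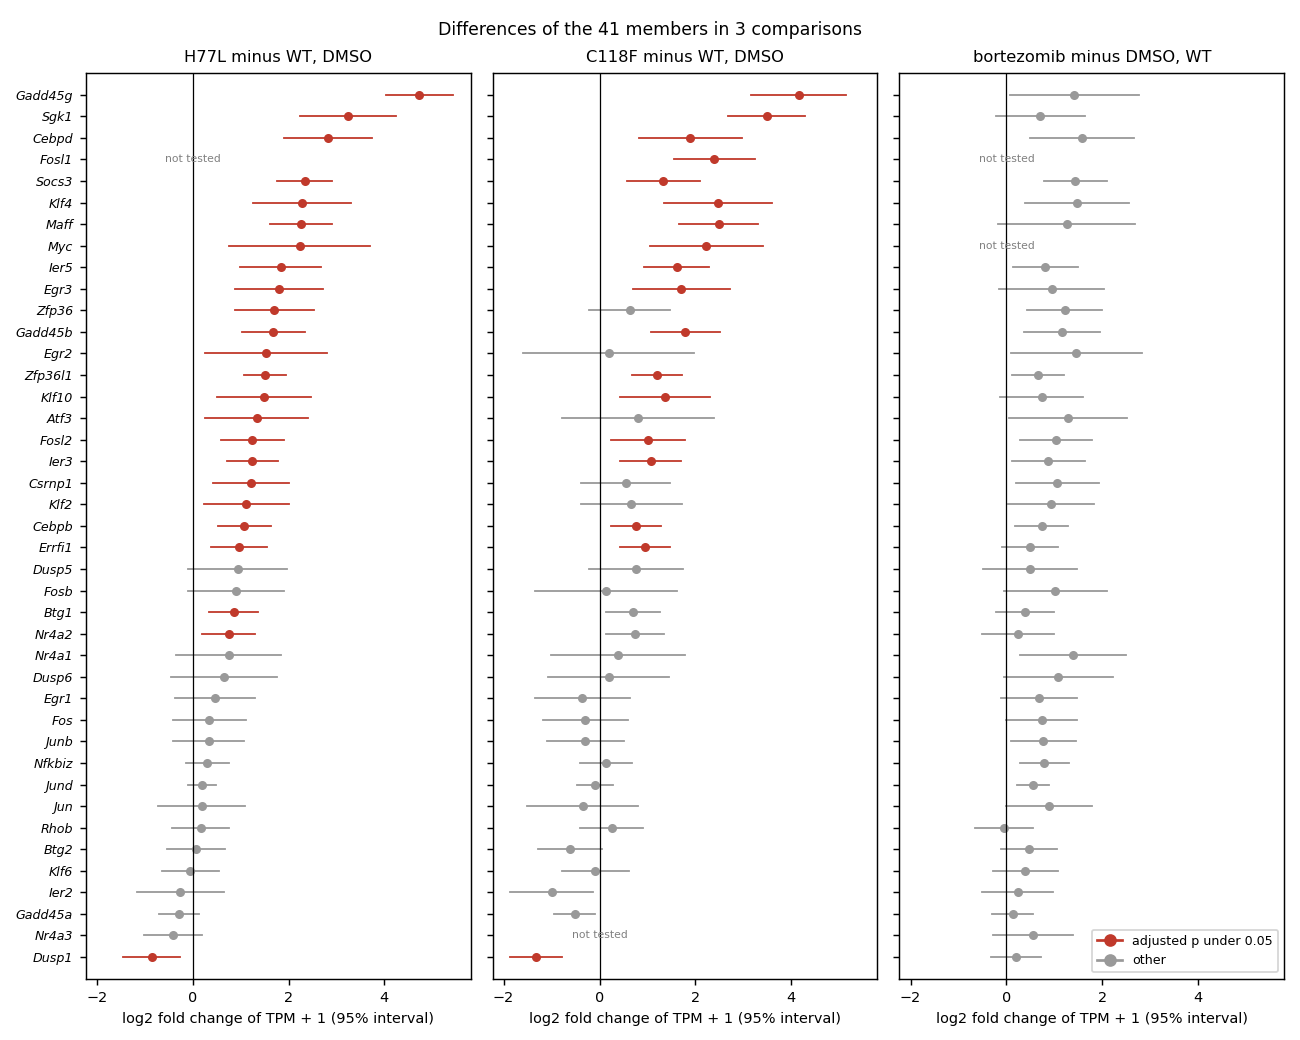
Log2 fold change of TPM + 1 of the 41 members with its 95% interval, for both mutant lines against controls under DMSO and for bortezomib against DMSO in controls; red marks an adjusted p under 0.05. Gadd45g and Sgk1 lie at the top of both mutant lines, Dusp1 at the bottom, and no member is red for bortezomib in controls.

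Fos, Jun and Egr1 were abundant in all groups. Fos had a lowest, median and highest TPM of 3651, 13966 and 17440 in controls, 7956, 14726 and 15949 in Lmx1bH77L/lox and 4056, 9657 and 14569 in Lmx1bC118F/lox mice. The groups overlapped, and the log2 fold change was 0.35 (95% interval -0.41 to 1.11, adjusted p = 0.448 in limma) in Lmx1bH77L/lox and -0.29 (-1.17 to 0.59, adjusted p = 0.63) in Lmx1bC118F/lox mice. Both intervals are wide, so a change within them was not detectable at this spread between mice. Egr1, a zinc finger factor induced with Fos, had 960, 4884 and 6561 in controls, 3116, 5369 and 6488 in Lmx1bH77L/lox and 922, 3521 and 4728 in Lmx1bC118F/lox mice. Its groups overlapped too (adjusted p = 0.353 and 0.605). Jun, the main partner of Fos, had medians of 3945, 3723 and 3090, with 720 in control mouse 1 and 586 in Lmx1bC118F/lox mouse 1. Without control mouse 1 its log2 fold change in Lmx1bH77L/lox mice turned from 0.19 to -0.23, and without Lmx1bC118F/lox mouse 1 that in Lmx1bC118F/lox mice turned from -0.35 to 0.05, none of them called. Junb and Fosb, further AP-1 subunits, were not called either. Atf3, a stress-induced relative of these factors, had 255, 1250 and 3937 in controls and 2062, 3038 and 5030 in Lmx1bH77L/lox mice, with overlap. It was called in Lmx1bH77L/lox mice (log2 fold change 1.33, SE 0.50, adjusted p = 0.0425), but without control mouse 1 it was 0.89 with an adjusted p of 0.0689 in limma, and it lost its call in 8 of 12 fits that left out 1 mouse. In Lmx1bC118F/lox mice it ranged from 298 to 6000 (adjusted p = 0.444).

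Among the other AP-1 related factors, Maff begins from a low level and was higher. Maff, a small Maf protein that pairs with other basic leucine zipper factors, had 3.19, 4.98 and 11.4 TPM in controls, 17.9, 30.1 and 69.6 in Lmx1bH77L/lox and 14.3, 38.1 and 92.3 in Lmx1bC118F/lox mice. Every mutant mouse was above every control, and Maff rose by 2.26 (SE 0.30, adjusted p = 4.15e-05) and 2.48 (SE 0.39, adjusted p = 0.000247) on the log2 scale. Fosl1, the Fos family member known for its later induction, was at or below 2.05 TPM in all controls, at 0.385 to 29.9 in Lmx1bH77L/lox and at 1.90 to 17.5 in Lmx1bC118F/lox mice. Its log2 fold change was 2.40 (SE 0.39) in Lmx1bC118F/lox mice, where it passed the filter only through the mutant group, and it was not tested in Lmx1bH77L/lox mice, where 1 mouse was below a TPM of 1. The lowest mutant mice overlapped the highest control. Fosl2 was called higher in both lines.

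Gadd45g and the kinase Sgk1 had the largest log2 fold changes of the members tested in both lines. Gadd45g, one of 3 small stress-induced proteins that act on MAP kinase signalling and the cell cycle, had 6.83, 10.4 and 23.6 TPM in controls, 220, 309 and 753 in Lmx1bH77L/lox and 97.3, 204 and 886 in Lmx1bC118F/lox mice. The groups did not overlap, and the log2 fold change was 4.73 (SE 0.33, adjusted p = 7.82e-08) and 4.15 (SE 0.46, adjusted p = 1.15e-05). Sgk1, a kinase induced by serum and glucocorticoids, had 13.2, 17.7 and 56.8 in controls, 108, 164 and 940 in Lmx1bH77L/lox and 144, 240 and 631 in Lmx1bC118F/lox mice, again without overlap. It rose by 3.24 (SE 0.47, adjusted p = 8.79e-05) and 3.49 (SE 0.38, adjusted p = 8.47e-06). Gadd45b had 107, 220 and 428 in controls and no mutant mouse below 436, with rises of 1.68 (SE 0.31, adjusted p = 0.000606) and 1.79 (SE 0.34, adjusted p = 0.00117). The third gene of the family, Gadd45a, was not called in either line. Ier3, a regulator of cell survival, had 284, 434 and 721 in controls, 804, 1022 and 2063 in Lmx1bH77L/lox and 623, 842 and 2200 in Lmx1bC118F/lox mice. It rose in both lines, with overlap only in Lmx1bC118F/lox mice (log2 fold change 1.24, SE 0.25, adjusted p = 0.00112, and 1.07, SE 0.30, adjusted p = 0.0147).

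**Figure D2:**
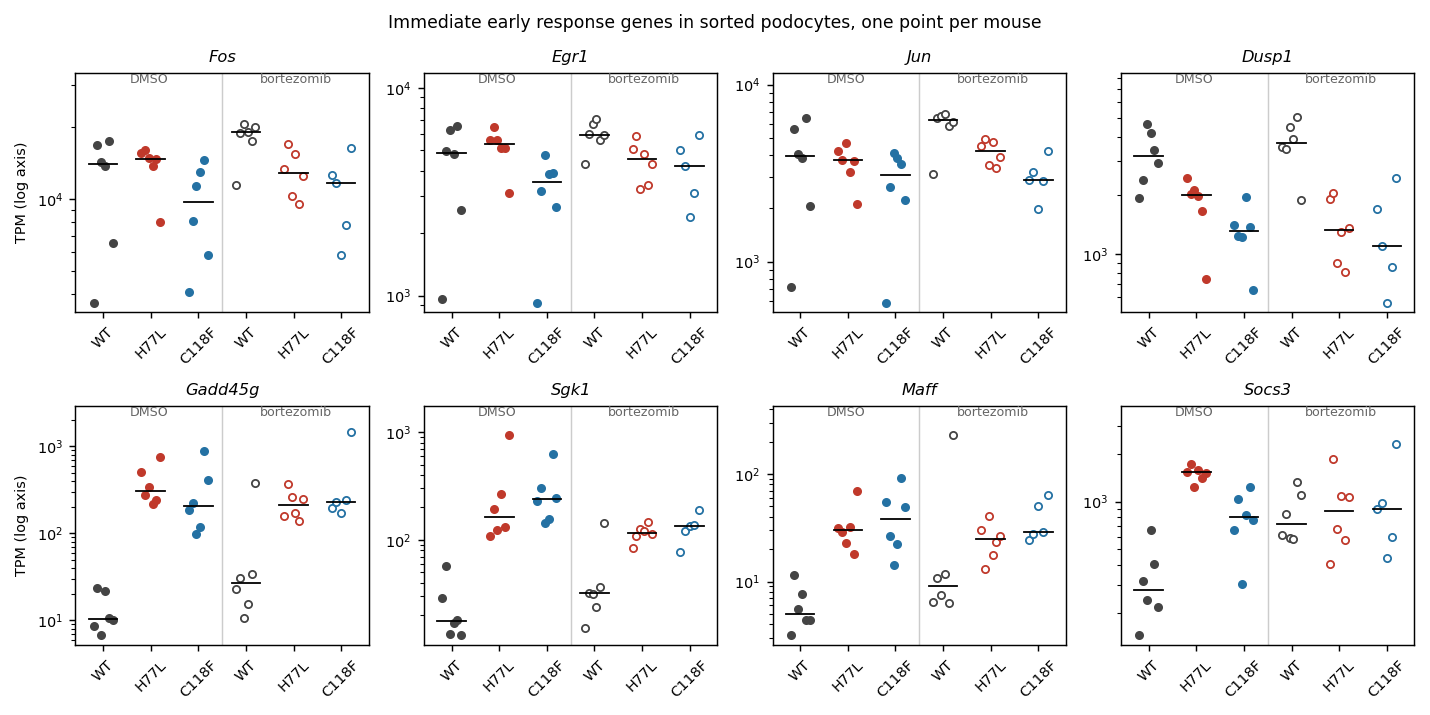
TPM of 8 members in each of the 35 mice on log axes, with controls in black, Lmx1bH77L/lox in red and Lmx1bC118F/lox in blue, filled under DMSO and open under bortezomib; bars are medians. Under DMSO Gadd45g, Sgk1 and Maff separate every mutant mouse from every control, Fos, Egr1 and Jun overlap, and 1 control mouse on bortezomib reaches the mutant range of Gadd45g, Sgk1 and Maff.

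Further transcription factors followed. Klf4, a Krüppel-like factor that podocytes are known to express, had 5.42, 14.2 and 34.6 TPM in controls, 28.7, 67.8 and 228 in Lmx1bH77L/lox and 25.7, 69.2 and 238 in Lmx1bC118F/lox mice. The groups overlapped slightly, and Klf4 rose by 2.28 (SE 0.48, adjusted p = 0.00158) and 2.47 (SE 0.53, adjusted p = 0.00282). Cebpd, a C/EBP factor of acute phase responses, had 5.78, 13.5 and 25.7 in controls, 57.2, 83.1 and 421 in Lmx1bH77L/lox and 15.01, 49.1 and 212 in Lmx1bC118F/lox mice. It rose by 2.82 (SE 0.43, adjusted p = 0.000122) without overlap in Lmx1bH77L/lox and by 1.89 (SE 0.50, adjusted p = 0.0112) with overlap in Lmx1bC118F/lox mice. Myc, the growth-promoting factor, was low everywhere, with 0 to 1.98 TPM in controls, 1.38 to 79.7 in Lmx1bH77L/lox and 1.31 to 27.4 in Lmx1bC118F/lox mice. The groups overlapped, and its log2 fold change was 2.23 in both lines, with the filter passed only through the mutant group. Egr3, a relative of Egr1, passed the filter in the same way and had a median of 4.09 in controls, 0.654 in control mouse 1, and 18.1 and 18.7 in the mutant lines, with overlap. Ier5 rose by 1.83 (SE 0.40, adjusted p = 0.00201) in Lmx1bH77L/lox and by 1.61 (SE 0.32, adjusted p = 0.00166) in Lmx1bC118F/lox mice, and every mutant mouse had more of it than the highest control at 30.0. Nr4a1, an orphan nuclear receptor, was not called in either line (adjusted p = 0.248 and 0.69), with 170 to 2367 in controls.

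Among the members that end the response, most of those called were higher and 1 was lower. Socs3, which blocks cytokine receptor signalling, had 145, 278 and 661 TPM in controls, 1240, 1522 and 1709 in Lmx1bH77L/lox and 302, 796 and 1241 in Lmx1bC118F/lox mice. It rose by 2.34 (SE 0.27, adjusted p = 1.09e-05) without overlap and by 1.33 (SE 0.36, adjusted p = 0.0117) with overlap. Zfp36, which binds AU-rich mRNAs and speeds their decay, had 329, 1771 and 2229 in controls and 2651, 4560 and 5151 in Lmx1bH77L/lox mice, a rise of 1.71 (SE 0.38, adjusted p = 0.00261) without overlap. In Lmx1bC118F/lox mice it had 1125, 2222 and 2707 and was not called (0.63, SE 0.40, adjusted p = 0.254). Its relative Zfp36l1 rose in both lines (1.51, SE 0.21, adjusted p = 5.98e-05, and 1.20, SE 0.25, adjusted p = 0.00206), and Errfi1, an inhibitor of the EGF receptor, by 0.96 and 0.95 (adjusted p = 0.0112 and 0.00944). Dusp1, the phosphatase that inactivates MAP kinases, went the other way, with 1940, 3173 and 4675 in controls, 743, 1997 and 2456 in Lmx1bH77L/lox and 647, 1311 and 1969 in Lmx1bC118F/lox mice. It fell by 0.86 (SE 0.28, adjusted p = 0.0208) and by 1.32 (SE 0.26, adjusted p = 0.00147) on the log2 scale, and the groups overlapped in each comparison. Dusp5 and Dusp6 were not called.

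Counted by separation, every Lmx1bH77L/lox mouse was above every control for 10 members under DMSO (Maff, Cebpd, Ier5, Zfp36, Zfp36l1, Gadd45b, Gadd45g, Socs3, Sgk1 and Ier3), which was so for 10.1% of the 12122 genes with a mean TPM above 1. Every Lmx1bC118F/lox mouse was above every control for 5 (Maff, Ier5, Gadd45b, Gadd45g and Sgk1), against 5.93% of genes. No member was below all controls in either line, against 9.13% and 6.48% of genes. Markers of other cell types also differed between the genotypes. The summed TPM of 10 mesangial and smooth muscle markers was 39.0 to 181 in controls, 599 to 979 in Lmx1bH77L/lox and 632 to 3245 in Lmx1bC118F/lox mice. Ren1 in 1 mouse made up 2166 of the 3245. Of 4 of the 10 markers tested, 3 were called higher in each line (Des, Pdgfrb and Cspg4). Des had medians of 29.9, 478 and 556 and Pdgfrb of 13.3, 196 and 125, while Rgs5 had 0.715, 0.739 and 0.0775, Ren1 6.21, 7.10 and 2.67, and Pdgfra a median of 0 in both mutant lines. The summed TPM of 6 parietal epithelial markers was 45.1 to 67.0 in controls, 148 to 342 in Lmx1bH77L/lox and 108 to 229 in Lmx1bC118F/lox mice, without overlap, and 4 of 4 tested were called higher in each line. The highest sum, 342, was in Lmx1bH77L/lox mouse 6. Cd44, 1 of the 4, had medians of 0.477, 5.95 and 14.5. It passed the filter only through the mutant groups, which favoured its call. The untested markers, Cdh6 and Pax2, had medians of at most 0.165 in these groups. The summed TPM of 12 endothelial markers was lower, at 1350 to 2086, 49.4 to 127 and 67.0 to 273. In controls most of this sum was Cldn5, with medians of 1814, 79.8 and 59.2 in the same order. The paper reports the protein of this gene in podocytes of control mice. The fall of the sum therefore does not show a loss of endothelial cells. Of 2 endothelial markers tested, Cldn5 was called lower in each line. Ehd3 was not called, with medians of 16.7, 14.7 and 18.2. The part of these markers in the members' levels was not tested. Mice with near mouse numbers could be compared in 3 pairs under DMSO, a Lmx1bC118F/lox, a Lmx1bH77L/lox and again a Lmx1bC118F/lox mouse each with 1 control. The mutant mouse was higher than its control for 36, 31 and 31 of 41 members, with a median log2 difference of 1.28, 0.61 and 0.96. In these pairs Gadd45g was higher by 3.16, 3.41 and 4.28 and Sgk1 by 3.35, 2.89 and 2.95. Dusp1 was lower, at -1.27, -1.33 and -0.46. The controls paired with Lmx1bC118F/lox mice, mice 6 and 1, were below their group mean for 39 and 38 members. The members made up 2.83 and 1.54% of their TPM, against 5.04 to 6.54% in the other controls on DMSO. The Lmx1bC118F/lox mouse paired with control mouse 1 was itself below its group mean for 36 members. Mouse numbers ran from 46302 to 47155 in DMSO-treated controls, from 46621 to 48975 in Lmx1bH77L/lox and from 46301 to 50093 in Lmx1bC118F/lox mice. The mutant mice reached higher numbers, so genotype and mouse number were partly confounded under DMSO. A fit with the mouse number as a covariate called 12 members in Lmx1bH77L/lox instead of 24, and 13 in Lmx1bC118F/lox mice instead of 18. Of the members described here, Atf3, Klf4, Myc, Ier5, Errfi1 and Dusp1 lost their call in Lmx1bH77L/lox and Cebpd, Socs3 and Ier3 in Lmx1bC118F/lox mice.

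The other genes of the pathway were read from fixed lists. Among 53 further fast-response genes, 22 of 44 tested were higher and 1 lower in Lmx1bH77L/lox, and 18 of 45 higher and 2 lower in Lmx1bC118F/lox mice, where 22.4% and 22.4% of all genes were called higher and lower in the first line and 13.7% and 16.6% in the second. Between the 2 control groups only 41 of the 53 were tested, so some of the 44 and 45 passed the filter only through the mutant group. For those the filter favoured a higher call, and these counts include them. Plk2, a stress-induced kinase, was 4.28 (SE 0.40, adjusted p = 1.46e-06) and 4.52 (SE 0.37, adjusted p = 5.57e-07) higher on the log2 scale, and Hbegf, a ligand of the EGF receptor, 2.83 (SE 0.27, adjusted p = 1.97e-06) and 2.76 (SE 0.22, adjusted p = 4.03e-07). Of 29 tested genes of the MAP kinase cascade and the serum response factors, which relay the signal, 5 were higher and 4 lower in Lmx1bH77L/lox and 5 higher and 3 lower in Lmx1bC118F/lox mice, against the same shares of all genes. Between the 2 control groups 27 of these genes were tested, so some of the 29 also passed only through the mutant group. In Lmx1bH77L/lox mice Map2k7 had the lowest p of this list and was lower, at -0.86 (SE 0.13, adjusted p = 0.000108 in limma). Srf was higher by 0.94 (SE 0.15, adjusted p = 0.000219) and Mapkapk2 by 0.62 (SE 0.10, adjusted p = 0.000232). In Lmx1bC118F/lox mice Mapkapk2 was higher by 0.60 (SE 0.09, adjusted p = 0.000199) and Map2k7 lower, at -0.97 (SE 0.17, adjusted p = 0.000629). Srf was not among the 3 genes with the lowest p there. The lines did not differ from each other by a call under DMSO. Of the 41 members 0 were called by limma, 5 had an unadjusted p under 0.05 (Zfp36, Socs3, Btg2, Egr1 and Junb, all lower in Lmx1bC118F/lox mice), and none of all 10809 genes was called (unadjusted 3.85%). Zfp36 differed by -1.08 (SE 0.22, adjusted p = 0.931) and Socs3 by -1.01 (SE 0.26, adjusted p = 0.931).

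In control mice bortezomib went with higher values of nearly all members, but none was called. Of 39 members tested, 38 had a positive log2 fold change, where 52.0% of the 10659 genes did, and the median was 0.78 against 0.01 over all genes. By limma 0 members and 0 of all genes (0%) passed an adjusted p under 0.05. At an unadjusted p under 0.05 there were 19 members, where 8.66% of all genes were. Socs3 had the lowest p, with 145, 278 and 661 TPM under DMSO and 579, 723 and 1320 under bortezomib (log2 fold change 1.43, SE 0.31, adjusted p = 0.539). The 2 groups overlapped for Socs3 in the highest DMSO mouse. Fos had 3651, 13966 and 17440 under DMSO and 11406, 18986 and 20539 under bortezomib (0.74, SE 0.35, adjusted p = 0.573). Nr4a1 had a median of 946 under DMSO and 2233 under bortezomib (1.39, SE 0.52, adjusted p = 0.56), and Klf4 of 14.2 and 29.3 (1.47, SE 0.51, adjusted p = 0.56). Gadd45g had medians of 10.4 and 27.2 (1.42, SE 0.63, adjusted p = 0.573), with 382 in control mouse 6 on bortezomib and at most 34.1 in the 5 others. In every one of these genes the groups overlapped, and no member lay above all DMSO-treated controls in all bortezomib-treated ones (0.132% of genes did).

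The higher values in the controls rested in part on few mice. Without DMSO-treated control mouse 1, the median of the members was 0.56. Without DMSO-treated control mouse 6, 10 members had an unadjusted p under 0.05, and once the mouse number was a term of the fit 9 did. The only bortezomib-treated and DMSO-treated controls with near mouse numbers, mice 3 and 1, differed in the same direction for 40 of 41 members, with a median of 1.88, but the DMSO-treated mouse of this pair was the one with the lowest members of its group. Of 41 tested further fast-response genes, 0 were called by limma and 13 had an unadjusted p under 0.05 (median 0.47), and of 14 inducible heat shock genes 0 and 5 (median -0.11).

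In both mutant lines few members were called after bortezomib. In Lmx1bH77L/lox mice 1 of 41 members was called, where 0.416% of 10813 genes were called higher and 0.74% lower, and 9 had an unadjusted p under 0.05, where 20% of all genes did. This was Nr4a1, with 989, 1430 and 1659 TPM under DMSO and 1628, 2368 and 2707 under bortezomib (log2 fold change 0.72, SE 0.14, adjusted p = 0.0352). Only the lowest bortezomib-treated mouse was within the DMSO range, and the call was lost when any 1 of 7 mice was left out (adjusted p up to 0.0855) and in a fit of all 35 mice (adjusted p = 0.52). Myc had 1.38, 3.83 and 79.7 under DMSO and 0, 0.389 and 0.844 under bortezomib, with every treated mouse below every untreated one (1.07% of genes), but its log2 fold change of -2.48 (SE 0.67, adjusted p = 0.0762) was not called. Myc passed the filter only through the DMSO group, where it was higher, and it was called with a pseudocount of 0.1 (adjusted p = 0.0434 in limma), in a fit of all 35 mice (adjusted p = 0.0471) and without DMSO-treated mouse 5 or 6. The members had a median of -0.17, all genes together one of 0.00, and 11 of 41 were positive. In Lmx1bC118F/lox mice 0 members were called by limma (0% of 10814 genes), 3 had an unadjusted p under 0.05 where 5.86% of all genes did, and the median was 0.11 against 0.06 over all genes. The 3 were Sgk1, Fosl1 and Myc, with log2 fold changes of -0.97 (SE 0.33, adjusted p = 0.784), -0.98 (SE 0.39, adjusted p = 0.813) and -1.55 (SE 0.63, adjusted p = 0.813). Myc under bortezomib was at 1.04, 1.51, 0.193, 1.67 and 5.22 TPM in Lmx1bC118F/lox mice 1 to 5, against 1.31 to 27.4 under DMSO.

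The difference of the bortezomib changes between genotypes was tested as an interaction. For Lmx1bH77L/lox minus controls, 38 of 41 members were negative with a median of -0.93 against -0.01 over all genes. None of the members or of all genes was called by limma (0%), and 19 members had an unadjusted p under 0.05, where 18.2% of all genes did. Socs3 had the lowest p (-2.27, SE 0.45, adjusted p = 0.0564), followed by Zfp36 (-1.73, SE 0.48, adjusted p = 0.0961). When 1 mouse was left out, up to 3 members were called, the 3 both without control mouse 1 on bortezomib and without control mouse 5 on DMSO. For Lmx1bC118F/lox minus controls, 39 of 41 were negative with a median of -0.79 against 0.06, 0 were called by limma (0%), and 7 had an unadjusted p under 0.05 against 5% of genes. These tests share the control mice, so they are not independent of each other. The bortezomib changes of both mutant lines differed for no member by an adjusted p under 0.05 (0%; 1 unadjusted, Socs3). On bortezomib itself, 0 of 40 members differed between the mutant lines by limma, where 0.713% of 10803 genes were called higher and 0.259% lower in Lmx1bC118F/lox mice, together 0.972%. At an unadjusted p under 0.05 there were 11 members, where 14.4% of all genes were, led by Nr4a1 (-0.50, SE 0.15, adjusted p = 0.136).

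Between mutant and control mice on bortezomib, members were called about as often as genes in general. In Lmx1bH77L/lox mice 9 of 40 were called, where 23.6% of all genes were, and in Lmx1bC118F/lox mice 11 of 40, where 27.5% were. In Lmx1bH77L/lox mice 5 members were higher (Fosl1, Zfp36l1, Gadd45g, Sgk1 and Rhob) and 4 lower (Junb, Jund, Dusp1 and Nfkbiz) of 40 tested, where 12.5% and 11% of 10805 genes were. The median was 0.07. Fosl1 passed the filter only through the mutant group in both lines, with 0 to 4.09 TPM in controls, 1.69 to 2.71 in Lmx1bH77L/lox and 1.34 to 4.08 in Lmx1bC118F/lox mice, and without it 4 members were higher in Lmx1bH77L/lox and 3 in Lmx1bC118F/lox mice. In Lmx1bC118F/lox mice 4 were higher (Fosl1, Klf10, Gadd45g and Sgk1) and 7 lower (Fos, Jun, Junb, Jund, Btg2, Gadd45a and Dusp1), where 15.1% and 12.4% of 10916 genes were (27.5% in all), with a median of -0.20. Gadd45g had 10.5, 27.2 and 382 TPM in controls and 138, 212 and 367 in Lmx1bH77L/lox mice (2.59, SE 0.61, adjusted p = 0.00521). In Lmx1bC118F/lox mice 1 to 5 it was at 197, 227, 172, 245 and 1485 (3.13, SE 0.76, adjusted p = 0.007). Sgk1 was higher by 1.67 (SE 0.36, adjusted p = 0.00288) and 1.81 (SE 0.41, adjusted p = 0.00479). The overlap of Gadd45g came from control mouse 6 alone. Dusp1 had 1889, 3700 and 5064 in controls, 807, 1330 and 2061 in Lmx1bH77L/lox and 1708, 1103, 559, 856 and 2466 in Lmx1bC118F/lox mice. Its log2 fold change was -1.44 (SE 0.25, adjusted p = 0.000498) and -1.599 (SE 0.33, adjusted p = 0.0025), and it was called lower in all 4 comparisons with controls, but not in every fit. With the mouse number as a term it was -0.64 (adjusted p = 0.211 in limma) in Lmx1bH77L/lox mice under DMSO and -1.14 (adjusted p = 0.0809) in Lmx1bC118F/lox mice on bortezomib. Jun was lower in Lmx1bC118F/lox mice, at 2874, 3190, 1994, 2861 and 4228 against 3141, 6289 and 6830 in controls (-0.94, SE 0.22, adjusted p = 0.00609), and Fos at 12604, 11677, 5805, 7752 and 16308 against 11406, 18986 and 20539 (-0.79, SE 0.27, adjusted p = 0.0395). At an adjusted p under 0.001 and a log2 fold change above 2 no member was called higher in either line, where 0.925% and 1.52% of genes were. Without control mouse 6, 18 instead of 9 members were called in Lmx1bH77L/lox and 16 instead of 11 in Lmx1bC118F/lox mice. With the mouse number as a term, 7 were called in Lmx1bH77L/lox and 3, all lower, in Lmx1bC118F/lox mice, where Gadd45g (1.51, adjusted p = 0.242 in limma) and Sgk1 (0.73, adjusted p = 0.212) lost their call. The 5 Lmx1bC118F/lox mice on bortezomib came from 2 clusters of near mouse numbers, and neither held a control. Genotype and mouse number were thus partly confounded in this comparison. On bortezomib 2 pairs of a Lmx1bH77L/lox and a control mouse had near mouse numbers, and they went opposite ways. In the pair with control mouse 5 the mutant mouse was higher for 28 of 41 members (median log2 difference 0.28), with Gadd45g at 3.39, Sgk1 at 1.54 and Dusp1 at -1.30. In the pair with control mouse 6, which stood apart from its group, the mutant mouse was lower for 37 of 41 (median -0.93), with Gadd45g at -1.25, Sgk1 at -0.74 and Dusp1 at 0.017.

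The spread between mice of a group was wide for these genes. The SD of log2(TPM + 1) about the group mean had a median of 0.67 over the 41 members and of 0.30 over the 12122 genes with a mean TPM above 1. Of the members, 32 had a larger SD than 90% of the genes of like level, within 0.5 on the log2 scale, and all 41 had a larger SD than 50% of them. For the most abundant members few genes were of like level, 2 for Fos, 16 for Egr1 and 22 for Jun. For Egr1 and Jun these included other members. Jund, which is known as the most constantly expressed Jun family member, had the smallest SD at 0.25. Cebpd had the largest at 1.18, then Egr2 at 1.16, Myc at 1.12, Gadd45g at 1.11 and Atf3 at 1.06. Within groups the median SD of the members was 0.77 in controls, 0.46 in Lmx1bH77L/lox and 0.75 in Lmx1bC118F/lox mice under DMSO, and 0.59, 0.31 and 0.53 under bortezomib. Fosb, for example, was at 117.8 TPM in Lmx1bC118F/lox mouse 1 under DMSO and at 1139 to 2056 in the others.

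**Figure D3:**
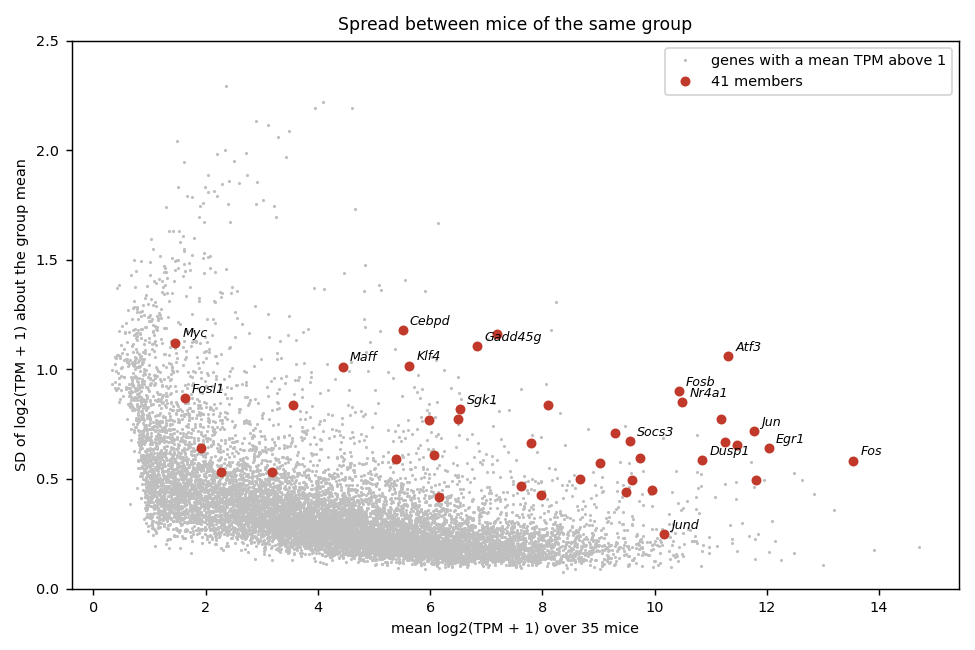
SD of log2(TPM + 1) between mice of the same group against the mean log2(TPM + 1) over 35 mice, for 12122 genes (grey) and the 41 members (red). All 41 members lie above the middle of the genes of like level, Jund closest to it.

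Part of the members moved together from mouse to mouse. Deviations from the group means were correlated with those of Fos over the 35 mice in 9 relations, with permutations within groups. Pearson's r was 0.94 for Egr1 (Spearman's rho 0.94), 0.92 for Jun (rho 0.90), 0.91 for Zfp36 (rho 0.90) and 0.90 for Junb (rho 0.85). For these 4 both permutation p-values were 1e-05, the smallest the permutations can give (adjusted p = 2.25e-05), and r was 0.92, 0.90, 0.88 and 0.86 without the 2 mice with the most extreme Fos, DMSO-treated control mouse 1 and Lmx1bC118F/lox mouse 1. Fosb (r = 0.74, rho 0.58), Nr4a1 (r = 0.69, rho 0.44), Dusp1 (r = 0.60, rho 0.58) and Socs3 (r = 0.51, rho 0.52) followed, with permutation p-values of 0.00024, 0.00138, 0.00033 and 0.00676 for r (adjusted 0.000432, 0.00177, 0.000495 and 0.0076) and of 0.00162, 0.0262, 0.00079 and 0.00487 for rho, and r of 0.55, 0.46, 0.66 and 0.47 without those mice. Atf3 had r = 0.48 (permutation p = 0.0276, adjusted 0.0276) and rho 0.26 (permutation p = 0.20), and its relation rested on those 2 mice, since r was 0.17 without them.

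Members called higher in the mutant lines included few of those with the highest correlation with Fos. Over the 40 other members r ranged from -0.25 to 0.94, and 18 were above 0.5. Of the 23 members higher in Lmx1bH77L/lox mice under DMSO 6 had an r above 0.5, and of the 17 higher in Lmx1bC118F/lox mice 2 did, against 11 of 15 and 15 of 21 members that were not called. The 23 include Egr3 and Myc, and the 17 include Fosl1, Egr3 and Myc. For these the filter favoured a higher call, and none of them had an r above 0.5 (Egr3 0.49, Myc -0.25, Fosl1 -0.09). Sgk1, Gadd45g, Maff, Klf4 and Myc had r of -0.05, 0.19, 0.03, 0.14 and -0.25. These are descriptions across genes that share the same mice. The spread within groups enters both r and the test behind a call, so the contrast may be partly fixed by it. This was not tested. DMSO-treated Lmx1bH77L/lox mouse 6 had the lowest Fos (7956), Egr1 (3116) and Jun (2114) of its group and the highest Cebpd (421), Sgk1 (940), Klf4 (228) and Maff (69.6).

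**Figure D4:**
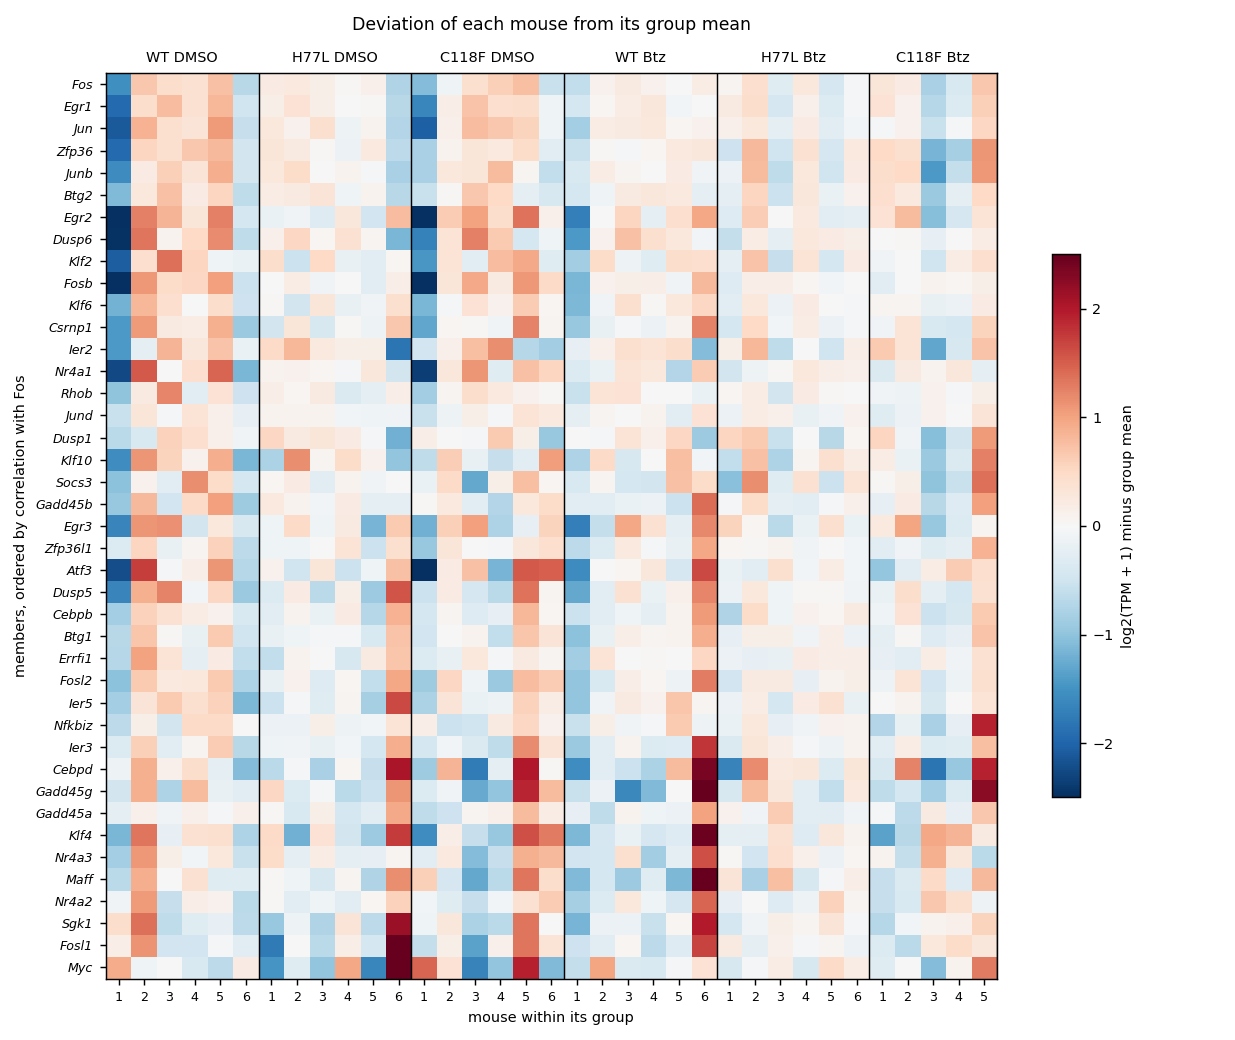
Deviation of log2(TPM + 1) of each mouse from its group mean for the 41 members, ordered from the top by correlation with Fos; colours are cut at 2.5 on either side. DMSO-treated control mouse 1 and Lmx1bC118F/lox mouse 1 are low over the upper members, while Lmx1bH77L/lox mouse 6 under DMSO and control mouse 6 on bortezomib are high mainly over the lower ones.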

How the data were processed

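Podocyte RNA of 35 mice was sequenced after amplification of mRNA. Per the labels and methods, the authors trimmed reads with Trim Galore 0.6.7, aligned them with STAR to GRCm39, used Picard, counted with featureCounts 1.6.3 and deposited 1 table of TPM values for 33292 genes; the step from counts to TPM is not given in the sources used here. Steps of the TPM values gave whole reads for 99.971% of genes above 0 (tolerance 0.02 reads), from 5266153 to 24138527 reads per mouse. Values were tested as log2(TPM + 1), computed from the deposited TPM, with limma 3.58.1 in R 4.3.3 (empirical Bayes with a mean trend). Each fit held the groups compared, with the genes for which 1 or more of these groups had no mouse at or below a TPM of 1. P-values were adjusted by Benjamini-Hochberg over all genes tested, and 0.05 was the threshold. Correlations used deviations from group means and 100000 two-sided permutations within groups. Fits were tested on simulated data. Figures and other steps used Python 3.11.15.

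The members, lists and tests were chosen with earlier results of these data known. Values by mouse are given for members called under DMSO or after bortezomib, at most the 12 with the lowest p per comparison, and for 13 members always described, among them Fos, Jun, Egr1 and Dusp1. Of other lists at most 3 genes per comparison are named. The label WT was taken as Lmx1b+/lox. Replicate numbers follow sample order and pair nothing. That each sample is a separate mouse rests on its mouse number. Alternatives were a pseudocount of 0.1, no filter, median-ratio scaling, all 35 mice in 1 fit, the mouse number as covariate or cluster, stricter cutoffs and leaving out each mouse, and, chosen after seeing the data, voom on the recovered reads, TPM rescaled without the members, and leaving out the number cluster with the lowest Fos. Promoter sequences are from GRCm39 with the GENCODE vM39 annotation.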

Additional observations from a re-analysis of the deposited data

Results flagged for a closer look

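For the 23 members described by mouse, the highest and lowest mouse of each group were compared with the gap to the nearest other mouse, by Dixon's 95% critical values. Of 138 groups tested 20 held such a mouse, where chance flags about 1 in 20. They came from 5 mice. Control mouse 6 on bortezomib was far above the others for Fosl1 (4.09 TPM, the nearest 0.616), Maff (231, the nearest 11.8), Klf4 (213, the nearest 33.6), Gadd45b (1228, the nearest 420), Gadd45g (382, the nearest 34.1) and Ier3 (2953, the nearest 899). Control mouse 1 on bortezomib was far below them for Fos (11406, the nearest 17545) and Jun (3141, the nearest 5868).

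DMSO-treated Lmx1bH77L/lox mouse 6 was low for Fos (7956, the nearest 13781), Egr1 (3116, the nearest 5122) and Dusp1 (743, the nearest 1662), and high for Cebpd (421, the nearest 105), Ier5 (218, the nearest 72.2) and Ier3 (2063, the nearest 1042). DMSO-treated Lmx1bC118F/lox mouse 1 was low for Fosb (117.8, the nearest 1139), Jun (586, the nearest 2228), Egr1 (922, the nearest 2664) and Zfp36l1 (431, the nearest 801). Lmx1bC118F/lox mouse 5 on bortezomib was high for Zfp36l1 (1697, the nearest 880) and Gadd45g (1485, the nearest 245).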

How the results depend on the processing

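Under DMSO the number of members called ranged from 20 to 24 in Lmx1bH77L/lox and from 15 to 20 in Lmx1bC118F/lox mice when 1 mouse was left out. The study's cutoffs left 5 and 4 members, and the mouse number as a further term 12 in Lmx1bH77L/lox mice. On bortezomib the 9 members called in Lmx1bH77L/lox mice became 0 with the study's cutoffs, 4 without a filter, 5 with all 35 mice in 1 fit, and 7 to 18 when 1 mouse was left out. The 11 in Lmx1bC118F/lox mice became 0 with the study's cutoffs, 4 without a filter, 3 with the number as a term, 7 with the number cluster as a random effect, 7 without the cluster of the lowest Fos, and 6 to 16 when 1 mouse was left out. For bortezomib in controls, the 19 members at an unadjusted p under 0.05 became 9 with the number as a term, 10 without that cluster and 10 to 28 when 1 mouse was left out, and the median of 0.78 became 0.50 without that cluster. For bortezomib in Lmx1bH77L/lox mice the 1 member called became 2 with a pseudocount of 0.1, 0 without a filter and 0 to 2 when 1 mouse was left out, and for its difference from controls 0 became 0 to 3. Directions turned for members that were not called. Jun in DMSO-treated Lmx1bH77L/lox mice went from 0.19 to -0.23 without that cluster (-0.23 to 0.40 when 1 mouse was left out). In DMSO-treated Lmx1bC118F/lox mice Fosb went from 0.13 to -0.035 once the mouse number was a term of the fit, and leaving out 1 mouse gave -0.37 to 0.74 for Fosb, -0.77 to 0.052 for Jun and -0.060 to 0.86 for Nr4a1. Dusp1 after bortezomib in controls went from 0.19 to -0.012 without that cluster. In DMSO-treated Lmx1bH77L/lox mice Dusp1, Myc and Atf3 lost their call without a filter (adjusted p = 0.0728, 0.0585 and 0.124 in limma) and with the number as a term (-0.64, 1.51 and 1.10, adjusted p = 0.211, 0.225 and 0.246). Apart from settings that test more genes or fewer mice, the cause was not tested. The number cluster as a random effect could not be fitted for Lmx1bC118F/lox against Lmx1bH77L/lox mice under DMSO. No paired analysis was possible because the replicate numbers only follow sample order; near mouse numbers were used in their place, as pairs of mice and as a random effect.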
